A study of Astyanax mexicanus with 20 samples.

Results

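tac3b (ENSAMXG00000035575) is a tachykinin precursor gene, and it was 1 of the 27420 genes measured in skeletal muscle of Astyanax mexicanus. It was chosen because its level was near 0 in the cave form, so its difference between forms is described below with no test. The river-dwelling surface fish and the troglobitic cavefish each gave 10 libraries. In each form 3 control libraries came from muscle injected with phosphate-buffered saline (pbs injection). Cardiotoxin injection, a venom toxin which destroys muscle fibres, was followed by collection at 1 day post injury (dpi, 3 libraries), 7 dpi (2 libraries) and 14 dpi (2 libraries). Controls carry no stated day, and all 20 libraries carry the treatment note Free Running Darkness, that is, constant darkness. The design text also speaks of sampling around the day with 3 fish at each time, and hour of collection was not used here. Whether the replicates of a group are different fish is not stated, so p-values reflect only how these libraries scatter, and part of that may be technical.

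Tachykinins are short peptides cut from larger precursors and released mainly by neurons. In mammals the precursor of this branch yields neurokinin B, which acts on a Gq-coupled receptor and is known from hypothalamic neurons that control gonadotropin release. Substance P, from a related precursor, is known in mammals from sensory nerve endings, including those that reach muscle. Fish carry duplicated copies of several of these genes, and tac3b is one of the fish copies of the neurokinin B precursor gene.

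Every surface library held tac3b and no cave library held more than a trace. Levels are in transcripts per 1000000 (TPM), divided by a scaling factor for each library. Surface controls measured 14.5, 38.1 and 29.0 scaled TPM, a mean of 27.2 ± 11.9 (SD, n = 3). At 1 dpi the surface libraries measured 29.8, 26.6 and 29.0 scaled TPM, a mean of 28.4 ± 1.65 (SD, n = 3). In scaled TPM these 3 libraries lay closer together than those of any other surface stage, and all of them lay inside the range of the controls.

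At 7 dpi the surface libraries measured 46.9 and 21.9 scaled TPM, a mean of 34.4 ± 17.7 (SD, n = 2). At 14 dpi they measured 83.3 and 26.6 scaled TPM, a mean of 54.9 ± 40.1 (SD, n = 2). At each of these stages 1 library stood above all controls and the other lay inside their range. In scaled TPM the order of the stage means was control, 1 dpi, 7 dpi and 14 dpi, but neighbouring stages overlapped. In TPM as deposited the means were 22.7, 40.9, 35.8 and 33.6, so the order of the injured stages turned.

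In cave fish 6 of 10 libraries listed tac3b at 0, including both at 14 dpi. The non-zero cave libraries were control replicate 2 with 0.262 scaled TPM, 1 dpi replicates 1 and 3 with 0.218 and 0.470, and 7 dpi replicate 2 with 0.247. Over all 10 libraries of a form the mean was 34.6 ± 19.2 scaled TPM in surface fish and 0.120 ± 0.168 in cave fish (SD, n = 10 each). The lowest surface library, a saline control, was 30.8 times the highest cave library in scaled TPM and 16.9 times in TPM as deposited. On the log2(scaled TPM + 1) scale the form means were 5.01 and 0.15, a difference of -4.86 for cave minus surface. The pseudocount of 1 on this scale understates the difference of a gene near 0. Library depth is unknown, so a value of 0 says only that the gene is listed at 0. In this bulk tissue, fewer cells that express tac3b and less tac3b RNA per cell cannot be told apart. The genome to which the cave reads were aligned is not given in the sources used here. A low cave value therefore says how few reads were assigned to this gene model, and whether reads of a diverged cave copy went uncounted was not tested.

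**Figure D1:**
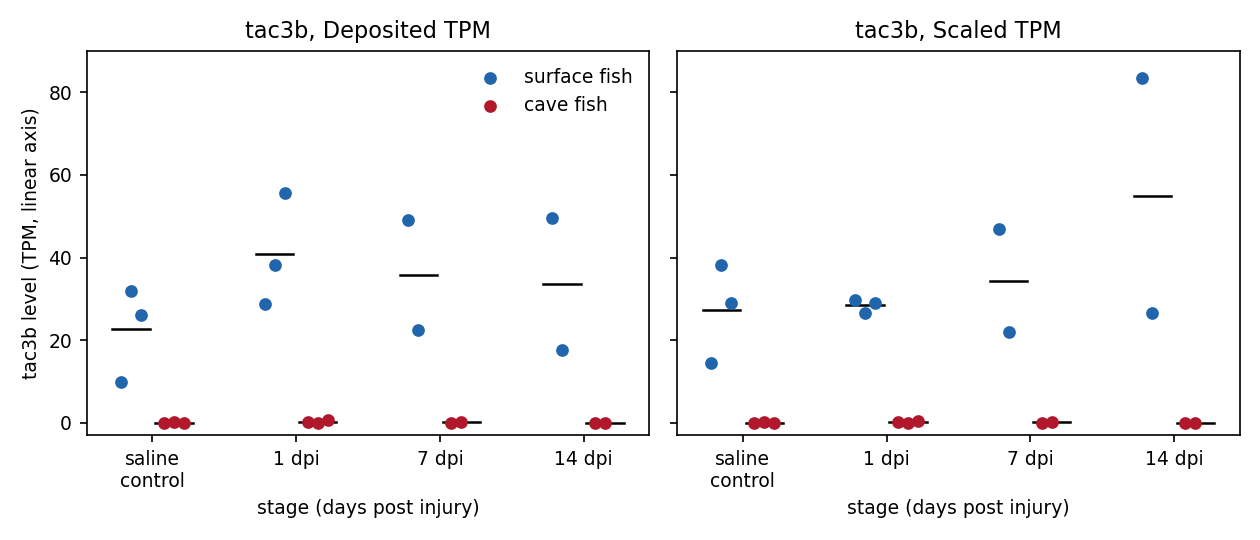
Level of tac3b in each of the 20 libraries by stage, on a linear axis, as deposited TPM (left) and as TPM divided by the library's scaling factor (right). Points are libraries and black bars are group means; every surface library lies at 9.95 TPM or more, and cave libraries lie at 0.59 TPM or less.

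Within surface muscle tac3b lay above most of the genes listed. It exceeded 87.0% to 96.8% of all genes in the surface libraries. Of the 27420 genes measured, 11150 to 15146 reached 1 TPM in a surface library. These shares therefore include many genes below 1 TPM, and a rank among the genes above that level was not computed. In the cave libraries it exceeded at most 40.8% of genes.

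Injury did not move tac3b beyond the spread between surface libraries. The stages of surface fish were not used to choose the gene, and they were compared in a limma fit of the 10 surface libraries. At 1 dpi against control the log2 difference was 0.16 ± 0.47 (SE; 95% interval -0.90 to 1.22; adjusted p = 0.867; exact permutation p = 0.9, smallest possible 0.1). In that comparison 9.15% of 15593 genes were called at an adjusted p under 0.05 in either direction. At 7 dpi the difference from control was 0.33 ± 0.53 (SE; 95% interval -0.85 to 1.51; adjusted p = 0.792; exact permutation p = 0.8, smallest possible 0.2), where 0.667% of genes were called. At 14 dpi it was 0.88 ± 0.53 (SE; 95% interval -0.31 to 2.06; adjusted p = 0.754; exact permutation p = 0.6, smallest possible 0.2), where 0.00641% of genes, a single gene, were called. Each interval held 0 and reached past 1 on the log2 scale.

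Adjacent stages gave the same reading. From 1 to 7 dpi tac3b differed by 0.17 ± 0.53 (SE; 95% interval -1.01 to 1.35; adjusted p = 0.905; exact permutation p = 0.8, smallest possible 0.2), with 1.24% of genes called. From 7 to 14 dpi it differed by 0.54 ± 0.58 (SE; 95% interval -0.75 to 1.84; adjusted p = 0.712; exact permutation p = 0.667, smallest possible 0.333), with 0.109% of genes called. In unscaled TPM the signs turned, to -0.24 and -0.16. Single libraries also carried these values. Without surface 14 dpi replicate 1, the library at 83.3 scaled TPM, the 14 dpi difference from control was 0.07, and without surface control replicate 1 the 1 dpi difference was -0.22.

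Scaling moved the 1 dpi value the most. In TPM as deposited the surface 1 dpi libraries measured 28.7, 38.2 and 55.7, against 9.95, 32.0 and 26.1 in the controls. The difference in unscaled values was 0.92 (adjusted p = 0.166), while the median over all genes in that fit was 0.61. Scaling factors ran from 0.965 to 1.92 in the surface 1 dpi libraries and from 0.687 to 0.902 in the surface controls.

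**Figure D2:**
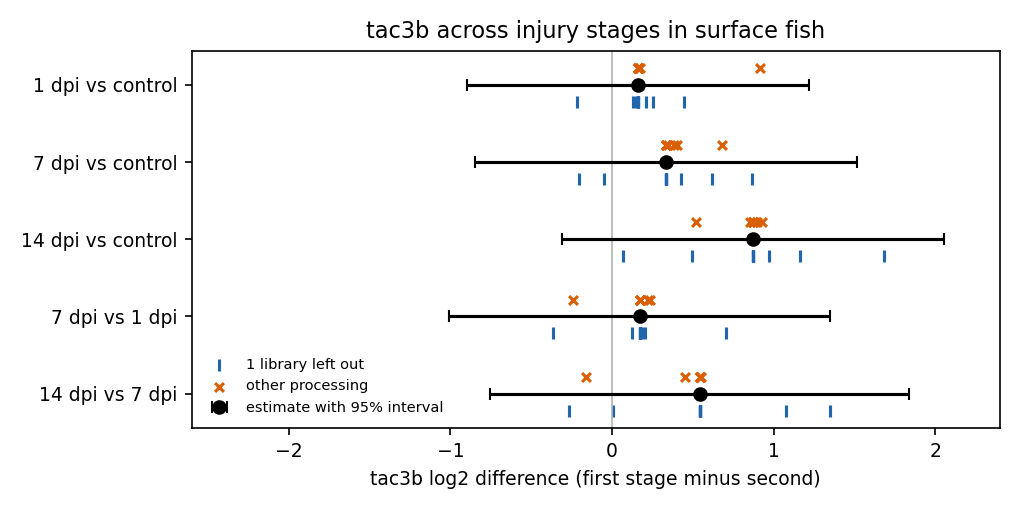
Log2 difference of tac3b between stages of surface fish (first stage minus second). Black points are the limma estimates with 95% intervals, blue ticks the estimates with 1 library left out and orange crosses those under other processing; every interval crosses 0, from -0.90 to 1.22 at 1 dpi against control.

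The other tachykinin precursors lay near 0 in both forms, far below tac3b in surface fish and about as low as tac3b in cave fish. tac1, the substance P precursor gene, was listed at 0 in 9 of 10 surface and 6 of 10 cave libraries, with highest values of 0.0573 and 0.185 scaled TPM. tac3a, the other fish copy of the neurokinin B precursor gene, was listed at 0 in 8 of 10 surface and 9 of 10 cave libraries, with highest values of 0.207 and 0.223 scaled TPM. Both lay below the filter of 1 TPM in 2 libraries and were not tested, and tac4 was not found by name.

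Receptor transcripts were low in both forms. tacr3l, named in the table as like the neurokinin B receptor gene, ran from 0.195 through a median of 0.596 to 1.21 scaled TPM in surface libraries and from 0.583 through 1.04 to 2.65 in cave libraries. Its cave minus surface difference, averaged over the 4 stages, was 0.43 ± 0.17 (SE; adjusted p = 0.0712) and did not pass. In that comparison 32.6% of 16884 genes were called, 18.4% with cave higher and 14.1% with cave lower. The difference passed in unscaled TPM (0.48, adjusted p = 0.0359), without cave control replicate 2 (0.49, adjusted p = 0.0376) and without cave 14 dpi replicate 1 (0.51, adjusted p = 0.0487). tacr1a, a substance P receptor gene, averaged 0.391 ± 0.331 scaled TPM in surface and 0.373 ± 0.194 in cave libraries (SD, n = 10 each). tacr1b, tacr2 and tacr3a stayed at or below 0.126 scaled TPM in every library, and tacr3b was not found by name. Of 5 receptor genes found, 1 passed the filter and 0 were called by limma. The 1 tested had an unadjusted limma p under 0.05, as had 7263 of all 16884 genes.

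**Figure D3:**
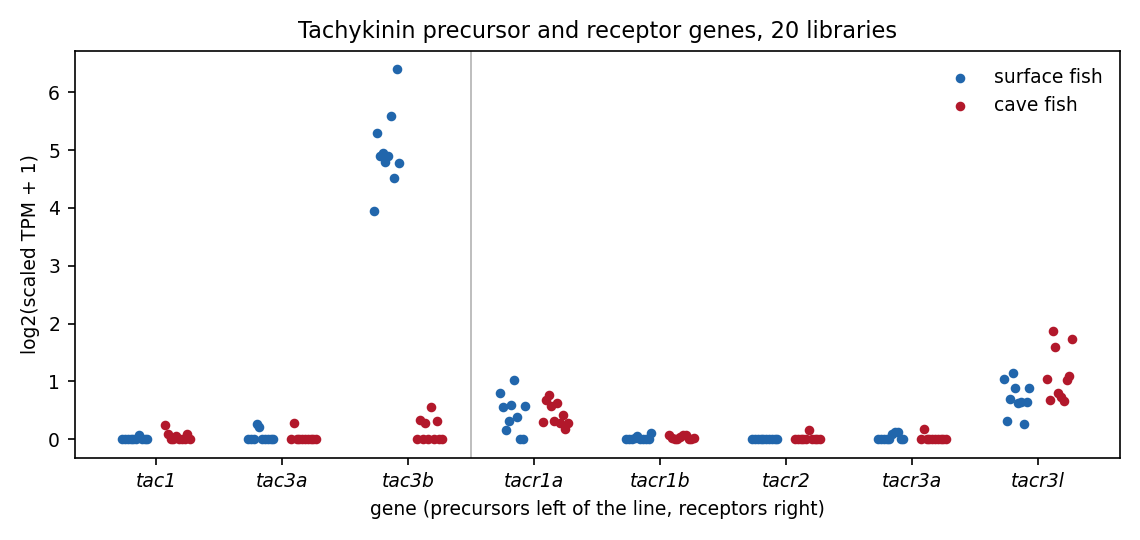
Levels of tachykinin precursor and receptor genes in each library, as log2(scaled TPM + 1), with surface libraries in blue and cave libraries in red. tac3b in surface fish (14.5 to 83.3 scaled TPM) stands apart from the other genes, and no receptor gene exceeds 2.65 scaled TPM.

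The pathway lists covered tachykinin maturation, breakdown and signalling, with genes of the reproductive axis and other neuropeptide precursors. Together they held 113 identifiers found in the table, tac3b included. Without tac3b 53 passed the filter, 9 were called with cave higher and 10 with cave lower. Their median cave minus surface log2 difference was -0.004, against 0.05 over all 16884 genes. Over all genes 18.4% were called with cave higher and 14.1% with cave lower, and the counts of the lists lie near these shares. Of the 53, 4 passed the filter through cave libraries alone (3 of them called with cave higher) and 7 through surface libraries alone (2 called with cave lower). The remaining 42 passed in both forms, with 6 called with cave higher and 8 with cave lower.

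Among enzymes that mature neuropeptides, 8 of 11 genes passed the filter. Of these 1 was called with cave higher and 1 with cave lower, and the median difference was 0.07. The shares over all genes tested were 18.4% and 14.1%, with a median of 0.05. qpctla, related to the enzyme that closes an N-terminal glutamine into pyroglutamate, ran from 1.09 through a median of 2.95 to 7.63 scaled TPM in surface libraries and from 0.612 through 1.11 to 1.52 in cave libraries. It was lower in cave fish by -0.97 ± 0.22 (log2, SE; adjusted p = 0.00347), although the forms overlapped. furinb, a furin-type proprotein convertase gene, was higher in cave fish by 0.44 ± 0.11 (log2, SE; adjusted p = 0.00640), with means of 3.49 ± 1.06 against 2.29 ± 0.650 scaled TPM (SD, n = 10 each). cpe, whose product trims basic residues from cut peptides, and pcsk1nl, the gene of a convertase inhibitor, differed by 0.20 (adjusted p = 0.152) and 0.41 (adjusted p = 0.205).

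Among peptidases able to cut tachykinins, 11 of 17 identifiers passed the filter. Of these 1 was called with cave higher and 2 with cave lower, and the median difference was 0.09. The shares over all genes tested were 18.4% and 14.1%, with a median of 0.05. ece2a and ANPEP ENSAMXG00000021468 passed the filter through cave libraries alone, and dpp4 through surface libraries alone. The median depends on such genes, so it is a description. MME, the gene of neprilysin, which degrades substance P and neurokinins, ran from 1.69 through a median of 4.65 to 8.59 scaled TPM in surface libraries and from 1.2 through 1.79 to 2.81 in cave libraries. It was lower in cave fish by -0.93 ± 0.14 (log2, SE; adjusted p = 0.000141), with overlap between the forms. anpepa, an aminopeptidase N gene, was lower in cave fish by -0.66 ± 0.15 (log2, SE; adjusted p = 0.00362), with means of 7.19 ± 3.69 against 10.9 ± 3.6 scaled TPM (SD, n = 10 each). The call with cave higher was a further aminopeptidase N identifier, ANPEP ENSAMXG00000021468, which passed the filter through 3 cave libraries alone. Its highest values were 0.523 scaled TPM in surface and 5.88 in cave libraries, and it was listed at 0 in 5 surface and 4 cave libraries, so its level is a description. The table holds several identifiers of this family, and reads of similar copies could be split between them. ece2b, an endothelin-converting enzyme gene, differed by 0.28 (adjusted p = 0.0606).

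Below the receptor, 18 of 23 Gq signalling identifiers passed the filter, 4 were called in each direction, and the median difference was -0.003. Over all genes tested 18.4% were called with cave higher and 14.1% with cave lower, with a median of 0.05. Among the calls with cave lower, itpr1b passed the filter through surface libraries alone, so its level is a description. rgs4, the gene of a GTPase activator that shortens Gq signals, was lower in cave fish by -0.90 ± 0.12 (log2, SE; adjusted p = 4.31e-05), with means of 9.79 ± 5.22 against 18.8 ± 7.29 scaled TPM (SD, n = 10 each). itpr1a, a gene of the inositol trisphosphate receptor that releases stored calcium, ran from 1.36 through a median of 1.64 to 1.95 scaled TPM in surface libraries and from 2.01 through 2.81 to 3.38 in cave libraries. The forms did not overlap in itpr1a, and the cave form was higher by 0.53 ± 0.07 (log2, SE; adjusted p = 5.79e-05); every cave library lay above every surface library for 1.82% of genes tested. prkcba, a protein kinase C gene, was higher in cave fish by 0.59 ± 0.12 (log2, SE; adjusted p = 0.00151). PLCB4 ENSAMXG00000014913, a phospholipase C beta gene, was lower in cave fish by -0.40 ± 0.09 (log2, SE; adjusted p = 0.00350, and 0.0508 in unscaled TPM), while a second PLCB4 identifier, ENSAMXG00000006086, differed by -0.004 (adjusted p = 0.984).

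Genes of the reproductive axis, in which neurokinin B acts in mammals, were mostly below the filter. Of 15 found, 5 passed the filter, 1 was called with cave higher and 2 with cave lower, and the median difference was 0.31. The shares over all genes tested were 18.4% and 14.1%, with a median of 0.05. With 5 genes the median was the value of esr1, which was not called. esr2b, an estrogen receptor beta gene, ran from 3.07 through a median of 7.13 to 14.5 scaled TPM in surface libraries and from 0.914 through 2.16 to 4.81 in cave libraries. It was lower in cave fish by -1.20 ± 0.18 (log2, SE; adjusted p = 0.000166), with overlap between the forms. Its paralog esr2a was called in the other direction, 0.46 ± 0.17 (log2, SE; adjusted p = 0.0480), but kept the call in 4 of 20 fits with 1 library left out (adjusted p up to 0.137), and esr1 differed by 0.31 (adjusted p = 0.0582). ar, the androgen receptor gene and the other call with cave lower, passed the filter through 3 surface libraries alone, so its level is a description. It averaged 0.979 ± 0.231 scaled TPM in surface and 0.517 ± 0.223 in cave libraries (SD, n = 10 each).

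Other neuropeptide precursors passed the filter in few cases. Of 40 identifiers found, 10 passed the filter, 2 were called with cave higher and 1 with cave lower (18.4% and 14.1% of all genes). The median difference was -0.37, against 0.05 over all genes. Of the 10, penkb, ccka and oxt passed the filter through surface libraries alone, and calca and galn through cave libraries alone. The median depends on which genes the filter let in, so it is a description. calca (ENSAMXG00000040690), a gene of the calcitonin family that in mammals also yields the sensory peptide CGRP, ran from 0 through a median of 0.402 to 0.965 scaled TPM in surface libraries and from 0.702 through 2.64 to 5.04 in cave libraries. The forms overlapped. galn, the galanin precursor gene, was listed at 0 in all 10 surface libraries and in 1 cave library, with a cave median of 0.976 and a highest cave value of 2.09 scaled TPM. Because calca and galn passed the filter through cave libraries alone, their levels are a description. adma, the gene of the vascular peptide adrenomedullin, was called with cave lower by -0.40 ± 0.14 (log2, SE; adjusted p = 0.0363), but kept the call in 10 of 20 fits with 1 library left out, and its adjusted p in unscaled TPM was 0.238. oxt, the oxytocin-type precursor gene, passed the filter through surface libraries alone and averaged 0.993 ± 0.914 scaled TPM in surface and 0.415 ± 0.619 in cave libraries (SD, n = 10 each).

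In surface fish 49 pathway identifiers were tested for a response to injury. At 1 dpi 1 rose, against 5.83% of all genes, and 2 fell, against 3.32%. Their median log2 difference was -0.04, against 0.03 over all genes. At 7 and 14 dpi 0 were called in the limma fits (0.667% and 0.00641% of all genes). At an unadjusted limma p under 0.05 there were 8 and 3, against 2725 and 1173 of all 15593 genes. These counts lie near the shares over all genes. The medians at 7 and 14 dpi were -0.06 and -0.15, against 0.04 and -0.01 over all genes. The rise called at 1 dpi was that of NFATC1 ENSAMXG00000018016, the gene of a calcium-regulated transcription factor. It rose by 1.54 ± 0.24 (log2, SE; adjusted p = 0.00815), from 2.13 ± 0.552 to 8.28 ± 2.59 scaled TPM (SD, n = 3 each). Another identifier under this name, nfatc1 ENSAMXG00000011048, was tested and not called at 1 dpi.

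MME fell by 1.15 on the log2 scale (SE 0.27; adjusted p = 0.0314) at 1 dpi in surface fish, from 6.22 ± 2.13 to 2.18 ± 0.434 scaled TPM (SD, n = 3 each). Its call was lost without surface control replicate 2 or 3 and without any 1 of the 3 surface libraries at 1 dpi (adjusted p 0.0643 to 0.0939), and in unscaled TPM (0.267). cpe fell by 0.82 on the log2 scale (SE 0.20; adjusted p = 0.0383), from 17.4 ± 2.90 to 9.38 ± 1.41 scaled TPM (SD, n = 3 each). It kept the call in 2 of 10 fits with 1 library left out (adjusted p up to 0.114), and its difference in unscaled TPM was -0.10 (adjusted p = 0.806). In cave fish 46 pathway identifiers were tested. At 1 dpi 6 rose and 8 fell (17.2% and 11.9% of all genes), at 7 dpi 4 rose and 2 fell (7.65% and 4.22%), and at 14 dpi 5 rose and 8 fell (7.70% and 6.14%). Their medians were -0.12, -0.07 and -0.32, against 0.04, 0.04 and 0.08 over all genes, and the difference in response between forms was not tested for the lists.

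No tested neighbour of tac3b differed as widely between forms as tac3b, and the calls among them went in both directions. Gene order was read from the RefSeq annotation of the assembly AstMex3_surface, and the files' own genome build is not given, so no positions are printed. The 5 nearest measured genes on either side were krt18b, ankrd33ab, arhgef25b, b4galnt1b and os9 before tac3b, and apof, stat2, gpr84, eif4bb and tns2b after it. Of 17 genes listed in this span, 7 were not found by name in the deposited table. One of these, c1galt1lb, overlaps tac3b in the annotation. The kit marks strand, but the strand setting of the counting is not given, so reads of the overlapping genes could have been shared.

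apof, the measured gene next to tac3b, encodes an apolipoprotein and ran from 4.81 through a median of 7.16 to 13.1 scaled TPM in surface libraries and from 4.76 through 7.79 to 10.98 in cave libraries. The forms overlapped over almost their whole ranges, and the difference was 0.06 ± 0.14 (log2, SE; adjusted p = 0.783). os9, a gene of protein quality control in the endoplasmic reticulum and the nearest measured gene on the other side, differed by -0.14 ± 0.09 (log2, SE; adjusted p = 0.231), and by 0.02 in unscaled TPM. Of 8 neighbours tested, 2 were called with cave higher and 2 with cave lower, with a median of 0.16 (18.4% and 14.1% of all genes, with a median of 0.05). krt18b, a keratin gene, was higher in cave fish by 0.72 ± 0.15 and tns2b, a focal adhesion gene, by 0.48 ± 0.10 (log2, SE; adjusted p = 0.00190 and 0.00133). eif4bb, a translation initiation gene, was lower by -0.43 ± 0.08 (log2, SE; adjusted p = 0.00131, and 0.219 in unscaled TPM).

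stat2, of interferon signalling, was lower in cave fish by -0.61 ± 0.20 (log2, SE; adjusted p = 0.0265). Its call was lost without surface 14 dpi replicate 1 (adjusted p = 0.0521), cave 7 dpi replicate 1 (0.0682) or cave 14 dpi replicate 1 (0.052), and in unscaled TPM (0.179). arhgef25b and gpr84 differed by 0.27 (adjusted p = 0.252) and 0.38 (adjusted p = 0.114), and ankrd33ab and b4galnt1b were below the filter. Surface and cave means were 0.0184 and 0.0286 scaled TPM for ankrd33ab, and 0.620 and 0.311 for b4galnt1b.

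**Figure D4:**
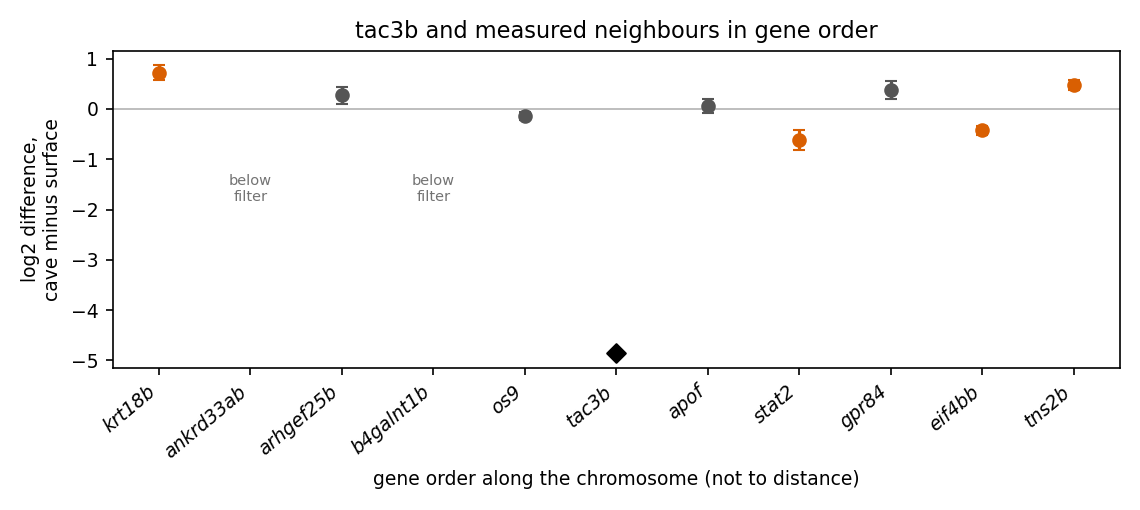
Cave minus surface log2 difference of tac3b (black diamond, a description with no test) and of its measured neighbours in gene order, with spacing not to distance. Circles are limma estimates with SE, orange where called; tac3b lies at -4.86 and every neighbour tested between -0.61 and 0.72.

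A pattern like that of tac3b was shared by few genes. Of 16884 genes tested, 242 (1.43%) had every surface library above every cave library, and 102 of these (0.604% of genes tested) also had a cave mean of at most 0.1 of the surface mean. These 102 genes include tac3b, and they were chosen by the pattern, so their values are a description. By log2 difference tac3b ranked 11th among them and second of the 13 that carry a symbol. No symbol was given for 89 of the 102 genes (87.2%), against 20.9% of all genes tested. The reverse pattern, with every cave library above every surface library and a surface mean of at most 0.1 of the cave mean, was met by 132 genes (0.782%), of which 93 (70.5%) had no symbol.

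The gene with a symbol and a wider difference was si:dkey-85k15.4, with means of 301 scaled TPM in surface and 0.129 in cave libraries. Next after tac3b came aifm2, the gene of an oxidoreductase of coenzyme Q (9.20 against 0.0417), cox7a2l, a respiratory supercomplex gene (9.50 against 0.764), and decr2, a peroxisomal reductase gene (4.47 against 0.213, all in scaled TPM). They were followed by cib3, calml4b, tmem91 and crtac1a, with surface means of 2.04, 1.86, 1.91 and 2.07 scaled TPM, and by ephx4, avpr2ab, pmela and si:ch73-173p19.2, with 1.77, 1.57, 1.32 and 1.07. Another identifier under the symbol COX7A2L, ENSAMXG00000029555, was high in both forms (8.63 in surface and 7.85 in cave fish as log2 of mean scaled TPM + 1), and decr2 has a second identifier too, so reads could be split between copies of these genes. Among surface libraries tac3b varied with a coefficient of variation of 55.6%, against a median of 49.3% over the 102 genes, of which 64 varied less.

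**Figure D5:**
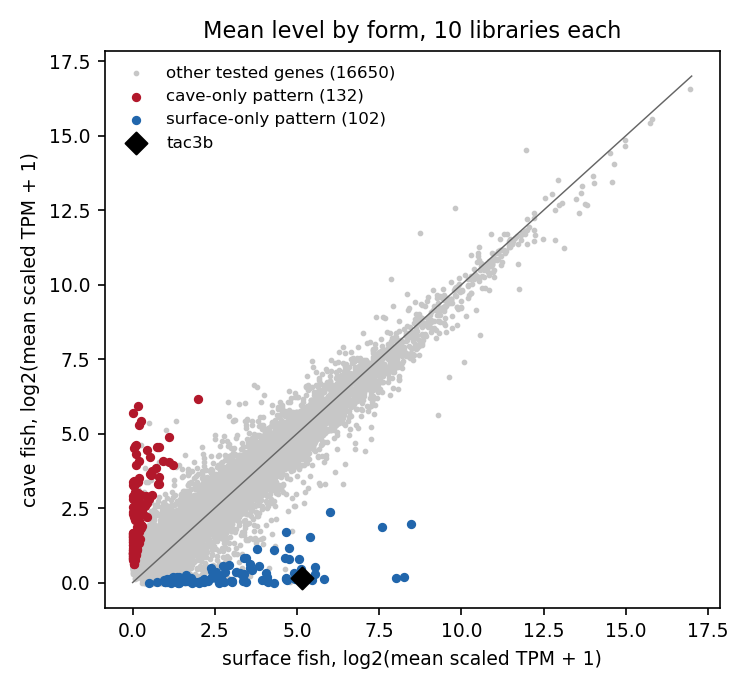
Mean level in surface and cave fish of the 16884 genes tested, as log2(mean scaled TPM + 1) over 10 libraries each. The 102 genes of the surface-only pattern are blue, the 132 of the reverse pattern red and tac3b a black diamond, near the horizontal axis at 34.6 scaled TPM in surface and 0.120 in cave fish.

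Genes most like tac3b were ranked by Pearson correlation of log2(scaled TPM + 1), as a description. Over all 20 libraries the correlation mostly reads the split between forms. The leading genes with a symbol were cox7a2l (r = 0.969), a gene with a clone-style name only (0.964), si:dkey-85k15.4 (0.957), mrpl44 (0.957), aifm2 (0.955), decr2 (0.953), abhd18 (0.952) and taok1b (0.946). mrpl44, a mitochondrial ribosomal protein gene, still averaged 25.1 scaled TPM in cave fish against 59.5 in surface fish, so a high r did not require absence in cave fish. In unscaled TPM the r of taok1b was 0.604. Of 102 genes with r of 0.9 or more, 70 had no symbol.

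Within the 10 surface libraries no gene reached r of 0.9, and the leading genes were others. They were midn (r = 0.888), si:dkey-85n7.8 (0.872), nanos1 (0.841), bbox1 (0.836), zgc:136493 (0.835), naprt (0.834), lamtor2 (0.833) and si:ch211-287a12.9 (0.833). midn encodes midnolin, a carrier of proteins to the proteasome. It measured 16.0 scaled TPM in surface control replicate 1 and 95.5 in surface 14 dpi replicate 1. In scaled TPM of tac3b these were the lowest and highest surface libraries. bbox1, a carnitine synthesis gene, averaged 2.63 scaled TPM in surface and 15.5 in cave fish, the reverse order of tac3b. These libraries share a tissue, a form and a scaling, and single libraries weigh in r. Without surface 14 dpi replicate 1, r fell to 0.559 for bbox1, 0.549 for lamtor2 and 0.578 for si:ch211-287a12.9, and without surface control replicate 1 that of lamtor2 was 0.935.

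Markers of other cell types were present in both forms. On the neuron list 13 of 24 identifiers found passed the filter. Its summed level ran from 35.8 to 210 scaled TPM in surface and from 43.6 to 301 in cave libraries. Of those that passed, elavl4, snap25a, snap25b, stmn2a, stmn2b, gap43, inab, sncga and map1b had lower medians in cave fish. The medians of neflb, nefma, prph and uchl1 were higher there, and prph reached 256 scaled TPM. Medians in surface and cave fish were 5.04 and 1.44 for stmn2a, and 2.18 and 12.9 for nefma. The motor neuron genes chata and slc18a3a of this list were listed at 0 in every library. The sensory neuron list, which includes calca, ran from 15.1 to 36.3 in surface and from 22.9 to 39.9 in cave libraries. Its member with the highest mean in both forms was runx1 ENSAMXG00000039960 (5.38 in surface and 9.65 in cave fish). This gene weighs in the sum, and whether the sum follows sensory neurons was not tested. Of its 25 identifiers found, 10 passed the filter. Among these p2rx3a, p2rx3b, isl2a and fgf13a had lower medians in cave fish. The medians of ntrk2a, trpv1, runx1 ENSAMXG00000039960, runx3 and calca were higher there, and another runx1 identifier had a median of 0 in both forms. Medians in surface and cave fish were 4.30 and 0.614 for p2rx3a, and 6.34 and 9.11 for runx1 ENSAMXG00000039960. Surface 14 dpi replicate 1 had the most tac3b in scaled TPM, and also the smallest scaling factor (0.595). In TPM as deposited, surface 1 dpi replicate 3 had more tac3b (55.7 against 49.6). Surface 14 dpi replicate 1 had the lowest sum of both lists among surface libraries, 35.8 and 15.1 scaled TPM. It also had the highest fast muscle fibre sum (547300) and the lowest neutrophil sum of the surface libraries (11.6). Its erythrocyte sum was 57.7 against a surface median of 21.4. The Schwann cell sum went the other way from the neuron lists, at 362.4 against a surface median of 267.4 and a highest surface value of 368.7. Pituitary and brain genes summed to 0.524 to 2.28 scaled TPM in surface and 1.77 to 5.03 in cave libraries, with gh1, pomca and olig2 listed at 0 throughout. Skin and epithelium genes ran from 299.9 to 2100 in surface and from 365.5 to 9183 in cave libraries. The ranges of the 2 forms overlapped in each of these lists, and their part in the tac3b levels was not tested. The labelled tissue was borne out by the fast muscle fibre list, which summed to 50400 or more scaled TPM in every library.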

How the data were processed

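RNA sequencing libraries were made per the labels' protocols from polyadenylated RNA with a stranded kit and read as single reads of 75 bases. The authors deposited gene levels as TPM; per the submitters' processing notes STAR 2.7.3a and RSEM 1.3.0 were used. The genome build is not given in the sources used here, nor is the annotation. Each library sums to 1000000, so depth is unknown and no counting interval was computed. A name was missing for 8654 genes.

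Each library was scaled by a median-of-ratios factor (0.595 to 1.92) from the 9467 genes that reached 1 TPM throughout. Moderated tests were run on log2(scaled TPM + 1) in limma 3.58.1 (R 4.3.3) with a mean-variance trend and Benjamini-Hochberg adjustment at 0.05. A gene entered a fit when 2 or more of its libraries reached 1 TPM. Stages were compared within a form (6 residual degrees of freedom), so that cave libraries near 0 did not set the spread of tac3b, and forms over all 20 libraries (12). The limma fit was also run on simulated data, with large changes planted in well expressed genes. That run does not cover differences as small as those of tac3b between stages, or genes near the filter. Single values were also tested by exact two-sided permutation.

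The members and lists were chosen with earlier results of these data known. Named genes were tac3b, all measured tachykinin precursor and receptor genes, up to 4 genes per other list by form and up to 3 by surface injury with the smallest adjusted p, up to 5 measured neighbours a side, the 8 with a symbol most like tac3b over all and over surface libraries, and the 8 with a symbol and the widest difference of the surface-only pattern.

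Replicate numbers were checked for pairing. Deviations of same-numbered surface control and 1 dpi libraries correlated at 0.138, 0.108 and 0.241, all over 0.1. No other numbered comparison with 3 pairs had all of them over 0.1. Same-numbered surface and cave controls come from different forms, yet replicate 2 of these reached 0.202. These values do not decide whether libraries are paired, and no label gives a source of pairing. The main tests took the libraries as unpaired, and a replicate block was run beside them. The processing was varied with a pseudocount of 0.1, without a filter, with a mean TPM of at least 5, unscaled TPM, quantile normalization, a replicate block, a fit on all 20 libraries and each library left out.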

Additional observations from a re-analysis of the deposited data

How the results depend on the processing

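The tac3b stage differences passed the threshold under no alternative. In unscaled TPM the sign turned from 1 to 7 dpi (-0.24) and from 7 to 14 dpi (-0.16), where the median of all genes shifted to -0.33 and -0.56. With 1 library left out, tac3b ranged from -0.22 to 0.45 at 1 dpi, -0.20 to 0.87 at 7 dpi and 0.07 to 1.68 at 14 dpi against control, -0.36 to 0.70 from 1 to 7 dpi and -0.27 to 1.35 from 7 to 14 dpi. With the replicate block the values against control were 0.16, 0.39 and 0.93 (adjusted p = 0.875, 0.792 and 0.738), and the block changed no call of tac3b but ended that of esr2a between forms (adjusted p = 0.0606). The tac3b mean ranged from 29.1 to 36.8 scaled TPM in surface and 0.0807 to 0.133 in cave fish with 1 library left out, and the surface-only pattern held 102 to 114 genes. In surface fish at 1 dpi against control, furinb differed by -0.49 in the main limma fit (adjusted p = 0.16) and by 0.046 in unscaled TPM. The os9 difference between forms was -0.14 in the main fit and 0.015 in unscaled TPM. apof between forms was -0.002 with quantile normalization and ranged from -0.037 to 0.15 with 1 library left out.

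Counts of genes called depended more on the processing, and the cause was not tested. With 1 library left out, surface counts against control ranged from 373 to 1456 at 1 dpi, 0 to 315 at 7 dpi and 1 to 18 at 14 dpi, from 8 to 299 from 1 to 7 dpi and from 0 to 190 from 7 to 14 dpi. Cave counts ranged from 2994 to 4950 at 1 dpi, 191 to 2199 at 7 dpi and 1109 to 2409 at 14 dpi, and those between forms from 4544 to 5622. Surface counts at 7 and 14 dpi against control, 1 to 7 dpi and 7 to 14 dpi were 104, 1, 193 and 17. A pseudocount of 0.1 gave 30, 0, 73 and 0. No filter gave 3 at 14 dpi and 28 from 7 to 14 dpi. A mean TPM of at least 5 gave 55 at 7 dpi, 0 at 14 dpi, 0 from 7 to 14 dpi and 2989 between forms (main 5496), with fewer genes tested. Unscaled TPM gave 3885 at 1 dpi (3778 higher; main 1426, of which 909 higher), 294 at 7 dpi, 464 from 1 to 7 dpi and 144 from 7 to 14 dpi, and in cave fish 887 at 7 dpi and 1062 at 14 dpi (main 1879 and 2190). Quantile normalization gave 2 at 14 dpi, 311 from 1 to 7 dpi and 2 from 7 to 14 dpi. The replicate block gave 2 at 7 dpi, 45 from 1 to 7 dpi and 1 from 7 to 14 dpi. The fit on all 20 libraries gave 2492 at 1 dpi, 775 at 7 dpi, 0 at 14 dpi, 741 from 1 to 7 dpi, 331 from 7 to 14 dpi and, in cave fish, 1246 at 7 dpi.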
